A study of Mus musculus with 19 samples.

Results

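The HOX genes and 3 limb position genes, *Pitx1*, *Tbx4* and *Tbx5*, were described in primary mouse sarcomas of the hindlimb. Every gene with a symbol made of Hox, a cluster letter from a to d and a paralog number was taken, which gave 39 HOX genes and 42 members in all, of the 48795 gene identifiers measured. The rule used names and no measured value. RNA was sequenced from 19 tumors with 1 library per tumor, 11 from lymphocyte-deficient Rag2-/- mice and 8 from immune-competent Rag2+/- littermates. Both groups were treated alike. An adenovirus that carried the Cas9 nuclease and a guide against *Trp53* was injected into the gastrocnemius, the large calf muscle, of mice 6 to 10 weeks old, and 300 µg of the carcinogen MCA (3-methylcholanthrene) followed. The mice received no further treatment, and tumors were taken at 70 to 150 mm3. Each tumor arose in its own animal and is named by its library code, such as S53. The piece of tissue holds tumor cells together with stroma, blood vessels, immune cells and any muscle that remained, so fewer cells of a type and less RNA per cell cannot be told apart.

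HOX genes encode homeodomain transcription factors. In the mouse they lie in the Hoxa, Hoxb, Hoxc and Hoxd clusters, on separate chromosomes, and genes of the same paralog number in different clusters descend from a common ancestor. Their order along the chromosome follows their order of use along the body axis, low paralog numbers at the head end and high numbers toward the tail, and the limb reuses the high-numbered Hoxa and Hoxd genes from shoulder or hip to digit. Fibroblasts and other connective tissue cells of adult animals keep much of this code. *Pitx1* and *Tbx4* are transcription factors of the hindlimb bud, and *Tbx5* is the T-box factor of the forelimb bud and the heart.

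Levels are the authors' upper-quartile normalized FPKM, fragments per kilobase of transcript, on a log2 scale after 0.1 was added. The floor of the scale is −3.32, and a gene was called expressed above 1 normalized FPKM. Depth read from the steps between low values was 24.9 M to 33.8 M fragments on genes in 18 libraries and 5.25 M in S41, a Rag2-/- tumor in which a gene of 1 kilobase with 1 fragment already reads 0.208 normalized FPKM. *Igkc*, the constant part of the kappa light chain made by B cells and plasma cells, checked the genotype labels. It was at most −0.80 in the Rag2-/- tumors and at least 3.88 in the Rag2+/- tumors. *Rag2* RNA itself did not separate the groups, at −2.05 to 0.36 (median −0.16) in Rag2-/- tumors and −2.33 to −0.57 (median −1.13) in Rag2+/- tumors and its level therefore did not check the labels.

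The hindlimb factors were present and the forelimb factor was near the floor. *Pitx1* (ENSMUSG00000021506, chromosome 13 of GRCm38, 55825051 to 55836192, minus strand) was at −0.92 to 4.5 (median 3.58) in Rag2-/- tumors and 0.43 to 3.95 (median 2.69) in Rag2+/- tumors. It was above 1 normalized FPKM in 18 of 19 tumors, with a median of 11.1. *Tbx4* (ENSMUSG00000000094, chromosome 11, 85886422 to 85916097, plus strand) was at −2.08 to 1.80 (median 0.92) and −2.07 to 1.47 (median 0.48), and it was above 1 in 14 tumors. *Tbx5* (ENSMUSG00000018263, chromosome 5, 119832668 to 119885219, plus strand) was at −3.32 to −0.33 (median −2.37) in Rag2-/- tumors and −3.32 to −1.16 (median −3.32) in Rag2+/- tumors. It was at the floor in 7 tumors and above 1 normalized FPKM in 0.

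Within tumors, *Pitx1* exceeded *Tbx5* in 19 of 19, by a mean of 5.21 ± 1.98 (SD, n = 19) on the log2 scale (two-sided exact sign-flip permutation test, adjusted p = 6.87e-06). *Tbx4* exceeded *Tbx5* in 17 of 19, by 2.92 ± 1.75 (SD, n = 19; two-sided exact sign-flip permutation test, adjusted p = 3.2e-05). In S41 and S46, both Rag2-/-, *Tbx4* was the lower of the pair. S41 is the shallow library, and S46 had the highest level of 6 adipocyte genes, a mean of 9.29 against a median of 0.58 over the tumors. With 1 in place of 0.1 added, the differences were 2.86 for *Pitx1* and 1.11 for *Tbx4*, since *Tbx5* lies at or near the floor. Fragments per kilobase allow levels of different genes to be set side by side, and p-values were adjusted over 18 such differences, 16 between neighboring HOX genes and these 2. *Pitx1* did not vary evenly. It was at −0.92 to 0.65 in S46, S51, S56, S59 and S60 and at 2.50 or more in the other 14 tumors.

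**Figure D1:**
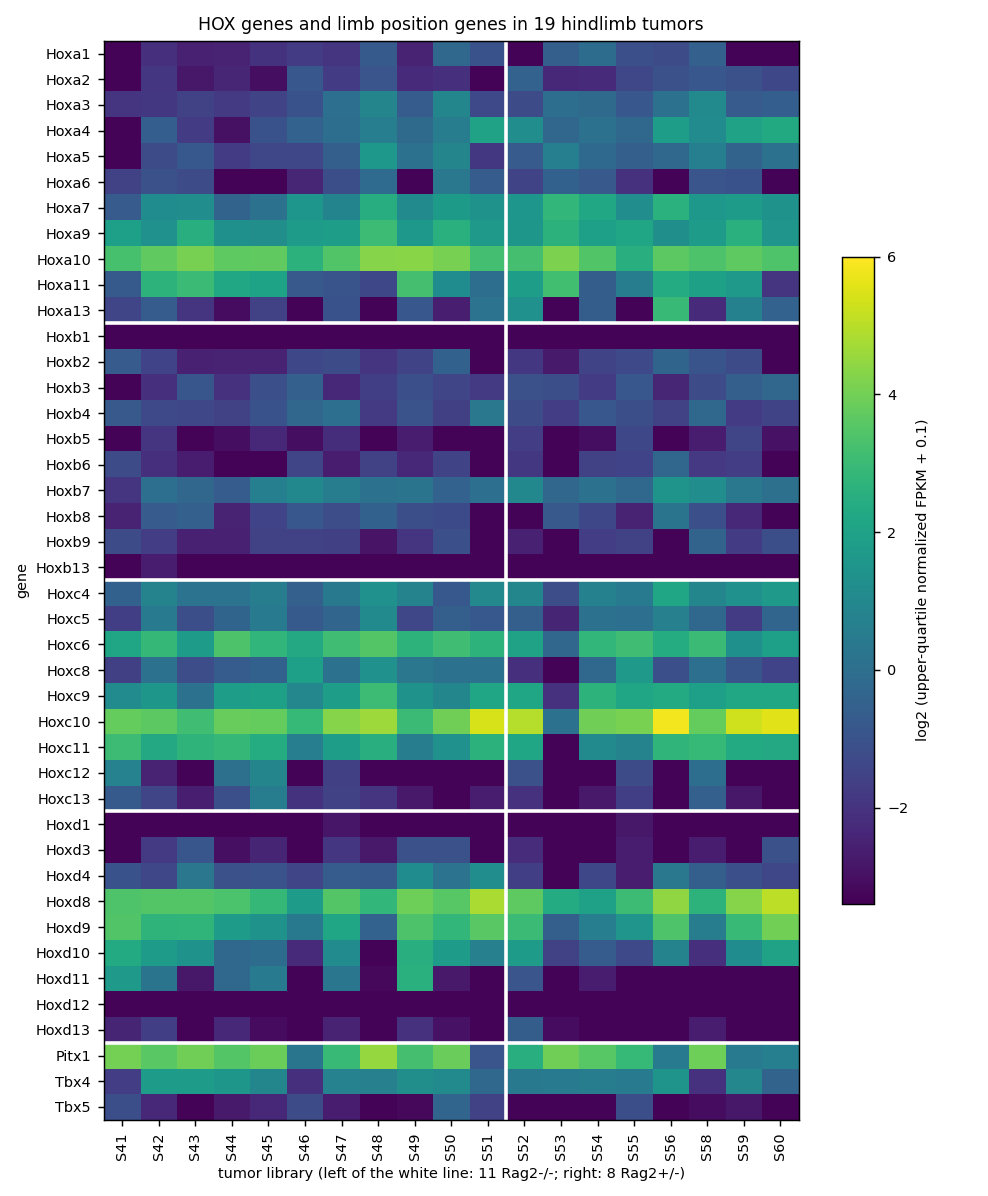
Each row is a gene and each column a tumor, with the color giving the log2 of upper-quartile normalized FPKM plus 0.1; 11 Rag2-/- tumors lie left of the white line and 8 Rag2+/- tumors right of it, and white rows divide the clusters and limb genes. *Hoxa10*, *Hoxc10* and *Hoxd8* are bright in most columns, the Hoxb rows are dark, and the Hoxc rows are dark in S53.

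Of the 39 HOX genes, 12 had a median above 1 normalized FPKM over the 19 tumors, 4 of 11 in Hoxa, 0 of 10 in Hoxb, 5 of 9 in Hoxc and 3 of 9 in Hoxd. By paralog number, 3 of 4 genes of group 9, 3 of 3 of group 10 and 2 of 3 of group 11 passed this level, and 0 of the 2 genes of group 12 and 0 of the 4 of group 13. Groups 1, 2 and 3 had 0 such genes of 3, 2 and 3. *Hoxa9*, *Hoxa10* and *Hoxd8* were above 1 in all 19 tumors, 13 HOX genes in none, and *Hoxb1* and *Hoxd12* were at the floor in all 19. Paralog groups 9 to 11 together held 49.8% to 72.7% of the summed HOX FPKM of a tumor, and groups 12 and 13 held 0.031% to 4.82%. By these medians the expressed genes ended at group 11 in Hoxa and Hoxc and at group 10 in Hoxd. Single tumors went further, with *Hoxd11* above 1 in 5 tumors, *Hoxa13* in 4, *Hoxc12* in 2 and *Hoxc13* in 1. The number of expressed HOX genes per tumor was 10 to 16 (median 15) in Rag2-/- tumors and 6 to 18 (median 13.5) in Rag2+/- tumors, lowest in S53 and highest in S56. This number depends on where the line is drawn, with a median of 28 genes above 0.1 and 5 above 5 normalized FPKM.

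**Figure D2:**
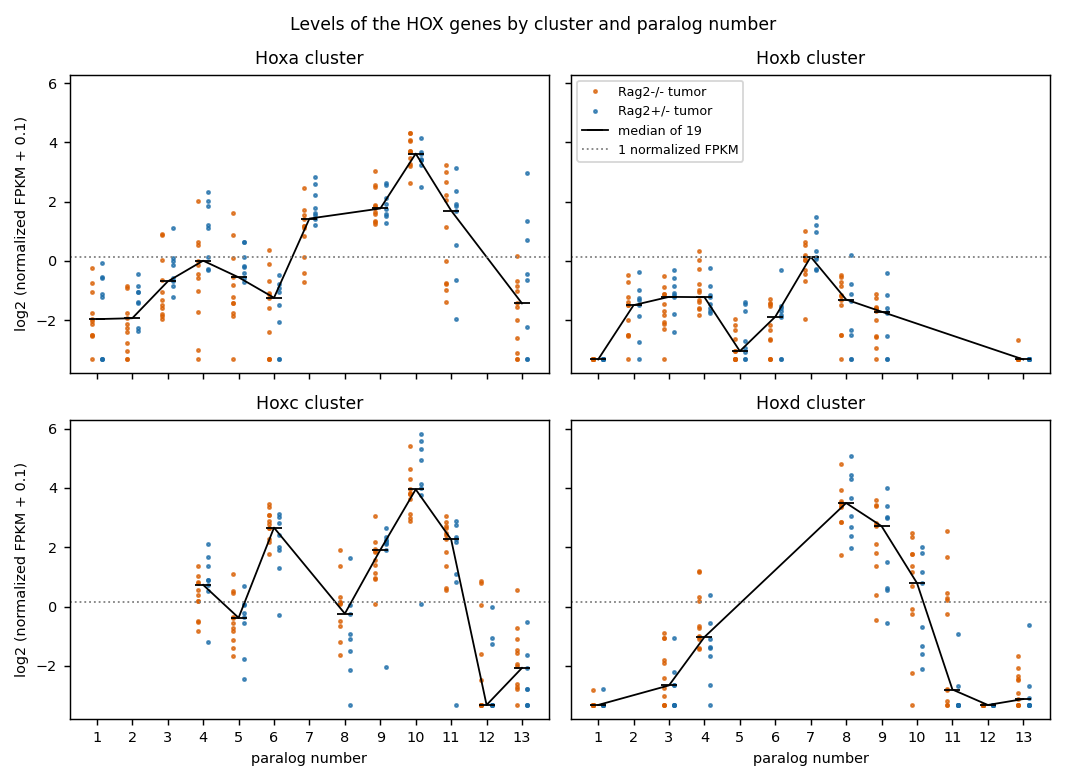
The 4 panels show the clusters, with paralog number on the horizontal axis and the log2 of normalized FPKM plus 0.1 on the vertical axis; points are tumors by genotype, black bars joined by lines are medians of the 19 tumors, and the dotted line is 1 normalized FPKM. Medians peak at *Hoxa10*, *Hoxc10* and *Hoxd8*, and the Hoxb median comes near the line only at *Hoxb7*.

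In the Hoxa cluster, *Hoxa10* (ENSMUSG00000000938, chromosome 6, 52231197 to 52240854, minus strand) was the highest gene. It was at 2.63 to 4.33 (median 3.70) in Rag2-/- tumors and 2.49 to 4.14 (median 3.43) in Rag2+/- tumors, and its SD of 0.50 was the smallest among the 14 HOX genes with a mean log2 value above 0. It was the highest HOX gene of all in 5 tumors. *Hoxa9* was likewise even, at 1.25 to 3.04. *Hoxa11*, which with its Hoxd partner patterns the zeugopod, the middle limb segment, had the largest SD of the expressed Hoxa genes, 1.69, and ran from −1.38 to 3.24 (median 1.16) and from −1.94 to 3.15 (median 1.78), and 12 tumors were above 1 normalized FPKM. The antisense gene *Hoxa11os* covers 35% of the exonic bases of *Hoxa11*. The library strand is not stated in the sources used here, so reads of the pair cannot be told apart. *Hoxa13*, a gene of the digits and of the tail end of the body, had a median of 0.271 normalized FPKM but reached 7.69 in S56.

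In the Hoxb cluster no gene had a median above 1 normalized FPKM. *Hoxb7* (ENSMUSG00000038721, chromosome 11, 96286623 to 96290162, plus strand), the highest, had a median of 0.999. It was at −1.94 to 1.0 (median 0.03) in Rag2-/- tumors and −0.30 to 1.48 (median 0.24) in Rag2+/- tumors.

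In the Hoxc cluster, *Hoxc10* (ENSMUSG00000022484, chromosome 15, 102966796 to 102971893, plus strand) was the highest HOX gene in 14 of 19 tumors. *Hoxc10* and *Hoxc11* are genes of the lumbar region and of the hindlimb. *Hoxc10* was at 2.88 to 5.42 (median 3.78) in Rag2-/- tumors and 0.09 to 5.83 (median 4.53) in Rag2+/- tumors. *Hoxc11*, the Hoxc gene with the largest SD among those with a mean above 0, was at 0.56 to 3.04 (median 2.42) and −3.32 to 2.89 (median 2.22). In both genes the lowest Rag2+/- value was that of S53, and the other 7 Rag2+/- tumors lay at 3.77 or more for *Hoxc10* and at 0.82 or more for *Hoxc11*. *Hoxc6*, a thoracic gene that forelimb tissue is also known to use, was at 1.77 to 3.47 (median 2.78) and −0.30 to 3.13 (median 2.22). *Hoxc10* shares 8.7% of its exonic bases with a long transcript of *Hoxc5*.

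In the Hoxd cluster, *Hoxd8* (ENSMUSG00000027102, chromosome 2, 74704615 to 74707933, plus strand), *Hoxd9* (ENSMUSG00000043342, 74697727 to 74700208) and *Hoxd10* (ENSMUSG00000050368, 74691924 to 74695105) lie side by side and were the only 3 with a median above 1 normalized FPKM. *Hoxd8* was at 1.75 to 4.81 (median 3.49) in Rag2-/- tumors and 1.97 to 5.07 (median 3.36) in Rag2+/- tumors. *Hoxd9* was at −0.46 to 3.60 (median 2.71) and −0.54 to 3.99 (median 2.24). *Hoxd10* was at −3.32 to 2.48 (median 1.15) and −2.11 to 2.0 (median 0.05). The levels fell from *Hoxd8* to *Hoxd10*, and the spread grew, with SDs of 0.88, 1.41 and 1.74 over the 19 tumors. The 3 genes varied together across tumors, with Pearson r of 0.86 for *Hoxd8* and *Hoxd9*, 0.90 for *Hoxd9* and *Hoxd10* and 0.68 for *Hoxd8* and *Hoxd10*, given as a description over 19 libraries that share the muscle content described below.

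Because *Hoxd8*, *Hoxd9* and *Hoxd10* moved together, the stretch of 250 bases before the start of each is shown, from RefSeq on GRCm38.p6, plus strand, 5′ to 3′. The starts are RefSeq's. For *Hoxd9* that start lies downstream of the Ensembl start given above, so the window ends inside the Ensembl gene, and for *Hoxd10* it lies upstream. Capitals mark CG dinucleotides, the sites of DNA methylation. The regions are chr2:74704365-74704614 for *Hoxd8*, chr2:74697513-74697762 for *Hoxd9* and chr2:74691641-74691890 for *Hoxd10*.
Hoxd8: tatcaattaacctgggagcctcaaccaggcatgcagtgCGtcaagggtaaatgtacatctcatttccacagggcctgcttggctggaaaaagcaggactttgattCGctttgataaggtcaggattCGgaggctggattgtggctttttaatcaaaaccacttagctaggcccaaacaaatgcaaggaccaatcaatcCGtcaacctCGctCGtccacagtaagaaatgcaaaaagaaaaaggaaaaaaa
Hoxd9: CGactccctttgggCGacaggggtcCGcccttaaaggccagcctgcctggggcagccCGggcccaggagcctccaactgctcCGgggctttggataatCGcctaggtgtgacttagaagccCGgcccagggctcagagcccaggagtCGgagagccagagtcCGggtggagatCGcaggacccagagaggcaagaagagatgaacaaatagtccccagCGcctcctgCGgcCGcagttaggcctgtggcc
Hoxd10: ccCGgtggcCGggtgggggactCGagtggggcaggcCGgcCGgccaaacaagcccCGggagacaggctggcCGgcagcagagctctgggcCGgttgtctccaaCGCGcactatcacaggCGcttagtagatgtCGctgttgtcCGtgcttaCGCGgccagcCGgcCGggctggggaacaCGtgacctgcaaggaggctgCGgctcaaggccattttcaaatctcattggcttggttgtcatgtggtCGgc
They hold 6, 13 and 20 CG dinucleotides. The median over the 32851 promoters in the table was 6, and over the 25 promoters found for 23 of the 42 members it was 12. *Hoxd10* lay above 82.1% of all promoters and *Hoxd8* above 49.6%, so these 3 co-varying genes did not share a CG density. The sequence TGATTNAT, which HOX proteins bind together with PBX, was found on either strand in 2 of the 25 member promoters, those of *Hoxa2* and *Hoxd11* (8.0%), and in 2.8% of all promoters. It was in none of the 3 shown, which says only that these letters are not in this window.

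Neighboring HOX genes of a cluster stood at different levels in the same tumor. Of 35 neighboring pairs, 16 had a gene with a median of at least 1 normalized FPKM and were tested. In all 16 the difference passed the threshold, 7 rising and 9 falling toward the higher paralog number (two-sided exact sign-flip permutation test), and 9 of 16 had the same sign in 19 of 19 tumors. Taking pairs for an expressed gene favors a difference from a low neighbor, and neighboring genes elsewhere were not tested. The count is therefore a description of these pairs and no mark of HOX genes. In the 8 Rag2+/- tumors alone 14 of 16 passed, and the step from *Hoxa7* to *Hoxa9* was 0.01 there against 0.94 in the Rag2-/- tumors, a difference that was not tested. The largest steps of Hoxa were a rise of 2.99 ± 1.19 (SD, n = 19) on the log2 scale from *Hoxa6* to *Hoxa7* and a fall by 2.55 ± 1.55 (SD, n = 19) from *Hoxa10* to *Hoxa11*. In Hoxc they were a fall by 3.95 ± 1.74 (SD, n = 19) from *Hoxc11* to *Hoxc12* and a rise of 2.94 ± 0.66 (SD, n = 19) from *Hoxc5* to *Hoxc6*. In Hoxd they were a rise of 4.24 ± 1.06 (SD, n = 19) from *Hoxd4* to *Hoxd8* and a fall by 2.09 ± 1.85 (SD, n = 19) from *Hoxd10* to *Hoxd11*. Every one of these steps had an adjusted p of 8.15e-05 or less (two-sided exact sign-flip permutation test, n = 19), and 3.81e-06 is the smallest unadjusted p that 19 tumors allow. Their sizes depend on the constant added where a gene is near the floor. With 1 in place of 0.1, all 16 steps still passed, but the step from *Hoxa6* to *Hoxa7* was 1.47, that from *Hoxc11* to *Hoxc12* −1.94, that from *Hoxc5* to *Hoxc6* 1.96 and that from *Hoxd10* to *Hoxd11* −0.81. The exonic bases of *Hoxd4* overlap those of other genes by 52.3%, *Hoxd3* among them, so its level is uncertain. *Hoxc11* was above 1 normalized FPKM in 18 tumors, and *Hoxc12*, its neighbor, was at the floor in 11.

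The genotypes were compared next. The 16 members with a mean log2 value above 0, 14 HOX genes with *Pitx1* and *Tbx4*, entered a limma fit over 12826 genes. Of these, 0 passed an adjusted p of 0.05, and over all genes 4 did, 0.0312%, each lower in Rag2-/- tumors. At an unadjusted p under 0.05 there were 2 of 16 members against 16.3% of all genes. Both counts are near those of all genes and say nothing particular about the members. The members' median difference, Rag2-/- minus Rag2+/-, was −0.06 on the log2 scale, with 7 higher and 9 lower, beside 0.06 over all genes. With no filter on low values, 0 of 40 members passed, beside 0.136% of all genes, and 5 of 40 had an unadjusted p under 0.05, beside 12%. In that fit *Hoxd11*, a gene of the middle limb segment, was above 1 normalized FPKM in 5 of 11 Rag2-/- tumors and in 0 of 8 Rag2+/- tumors, with a difference of 1.99 (SE 0.77, limma adjusted p = 0.40). It was at −3.32 to 2.56 (median −0.26) and −3.32 to −0.92 (median −3.32), and the groups overlapped. *Hoxd11* was singled out after its values were seen.

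The 3 members with the lowest p were *Hoxa4*, *Hoxa7* and *Hoxc6*. *Hoxa4*, a gene of the neck region of the axis, was at −3.32 to 2.02 (median −0.45) in Rag2-/- tumors and −0.31 to 2.31 (median 1.17) in Rag2+/- tumors. Its difference was −1.66 (SE 0.61, limma adjusted p = 0.30), −0.82 with 1 in place of 0.1 added and −0.93 with the muscle list as a covariate. *Hoxa4* passed the filter with a mean of only 0.06, through the Rag2+/- tumors in particular (means of 1.01 and −0.64), and was under it in 6 of the 19 fits that left out 1 tumor. *Hoxa7*, a trunk gene, was at −0.70 to 2.46 (median 1.18) and 1.22 to 2.84 (median 1.69), a difference of −0.96 (SE 0.36, limma adjusted p = 0.30). For both, the lowest values were in S41 and S44, and S41 is the shallow library. For *Hoxc6* the difference was 0.71 (SE 0.37, limma adjusted p = 0.32), and 0.38 without S53. *Pitx1* differed by 0.69 (SE 0.72, limma adjusted p = 0.56) and *Tbx4* by 0.30 (SE 0.54, limma adjusted p = 0.74). The *Pitx1* difference ran from 0.42 without S56 to 1.08 without S51. With the muscle list as a covariate the *Pitx1* estimate turned to −0.49.

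**Figure D3:**
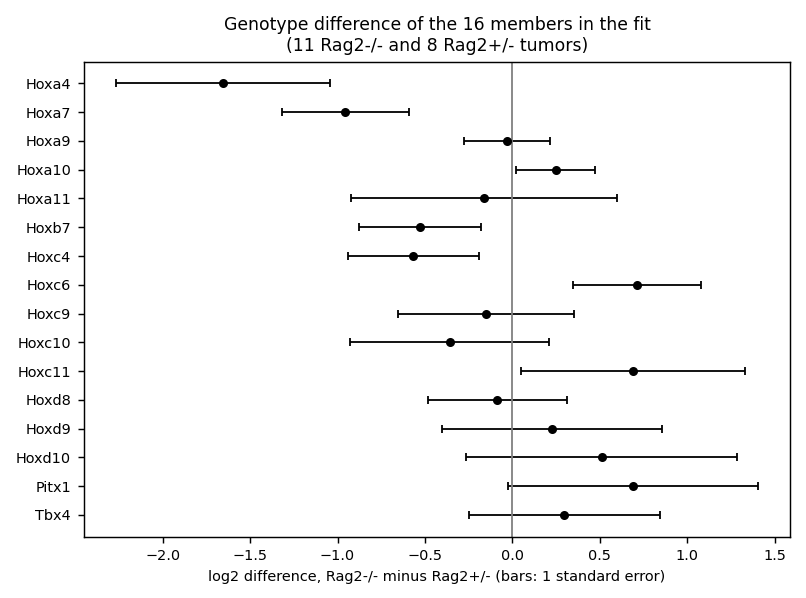
Points are the log2 differences Rag2-/- minus Rag2+/- of the 16 members in the limma fit and bars are 1 standard error, over 11 and 8 tumors. *Hoxa4* at −1.66 and *Hoxa7* at −0.96 lie farthest below 0, and no member passed an adjusted p of 0.05.

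Muscle content differed among the tumors, which started inside a muscle. The mean level of 18 skeletal muscle genes, of which *Acta1* and *Tnnt3* were highest at 11.12 and 10.56, ran from 3.77 to 11.26 (median 7.48) in Rag2-/- tumors and from 5.95 to 12.48 (median 10.08) in Rag2+/- tumors. In a limma fit with genotype in the model, 7 of the 16 members changed with this level, against 54.9% of all genes. The members' share was thus no higher than that of all genes. Of the members 5 rose, where 24.6% of all genes did, and 2 fell, where 30.3% did. The slopes are log2 units of the gene per log2 unit of the muscle mean, and their median was 0.13 over the members and −0.02 over all genes.

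The rising members were *Hoxd8*, *Hoxd9*, *Hoxd10*, *Hoxc10* and *Hoxa4*. *Hoxd9* rose by 0.51 (SE 0.10, limma adjusted p = 2.42e-04), *Hoxd10* by 0.52 (SE 0.14, limma adjusted p = 0.0048; 0.23 with 1 in place of 0.1 added) and *Hoxd8* by 0.30 (SE 0.07, limma adjusted p = 8.22e-04). *Hoxd9* was between 2.98 and 3.99 in the 5 tumors with a muscle mean above 11, S51, S52, S56, S59 and S60, and at −0.54 and −0.46 in S53 and S48, which had muscle means of 5.95 and 3.77. The other 12 tumors spread from 0.40 to 3.43, and S43, with a muscle mean of 5.09, had *Hoxd9* at 2.74. *Hoxc10* rose by 0.41 (SE 0.10, limma adjusted p = 0.0022), and without S53 its slope was 0.24 (SE 0.07, limma adjusted p = 0.010). *Hoxa4* rose by 0.33 (SE 0.13, limma adjusted p = 0.033), a call lost without S53 (limma adjusted p = 0.069) and kept in 10 of the 13 fits that left out 1 tumor and still held the gene. It was also lost in the 15 tumors with values listed by the study, with no filter, with 0.01 in place of 0.1 and after quantile normalization (limma adjusted p of 0.050 to 0.197), and the slope was 0.20 with 1 added.

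*Pitx1* fell by 0.54 (SE 0.12, limma adjusted p = 0.0010), and *Hoxa9* fell by 0.13 (SE 0.05, limma adjusted p = 0.037), a call kept in 13 of the 19 fits that left out 1 tumor and lost in those 15 tumors, with no filter, after quantile normalization and without genotype in the model (limma adjusted p of 0.058 to 0.099). *Hoxa10* had a slope of −0.05 (SE 0.05, limma adjusted p = 0.47). Of the 5 tumors in which *Pitx1* was at 0.65 or less, S51, S56, S59 and S60 had muscle means of 11.26 or more, and S46 had 6.64 with the highest adipocyte level. S52, with a muscle mean of 11.35, had *Pitx1* at 2.50. In S46 *Hoxd8*, at 1.75, was at its lowest of the 19 tumors as well. Without S53 the members called numbered 5 of 16, 4 rising and 1 falling, beside 49.3% of all genes. With no filter on low values 6 of 40 members were called, beside 30.2% of all genes, and *Hoxa13*, singled out after its values were seen, rose by 0.62 (SE 0.11, limma adjusted p = 3.98e-04). *Hoxa13* was above 1 normalized FPKM in 4 tumors, S51, S52, S56 and S59, each with a muscle mean of 11.26 or more, and at −0.45 in S60, whose muscle mean was 11.56. Whether the muscle cells themselves carried these transcripts was not tested.

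Within the genotypes the slopes were tested separately, a step added after the data were seen. In the 11 Rag2-/- tumors 0 of 16 members passed an adjusted p of 0.05, where 12.6% of all genes did, and 3 of 16 had an unadjusted p under 0.05, beside 34.6% of all genes. In the 8 Rag2+/- tumors 8 of 16 passed, where 47% did. *Hoxd9* had slopes of 0.39 (SE 0.15) and 0.63 (SE 0.08), and *Pitx1* −0.51 (SE 0.20) and −0.57 (SE 0.10). *Hoxc10* had slopes of 0.15 (SE 0.10) and 0.66 (SE 0.12). Tested directly as an interaction of genotype and muscle list, 0 of 16 members and 0 of 12826 genes (0.00%) passed in limma. At an unadjusted p under 0.05 there were 3 members and 12.6% of all genes, and the members were *Hoxc4*, *Hoxc10* and *Hoxc11*, with S53 among the Rag2+/- tumors. *Hoxc4*, a gene of the neck region, was named after its values were seen.

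**Figure D4:**
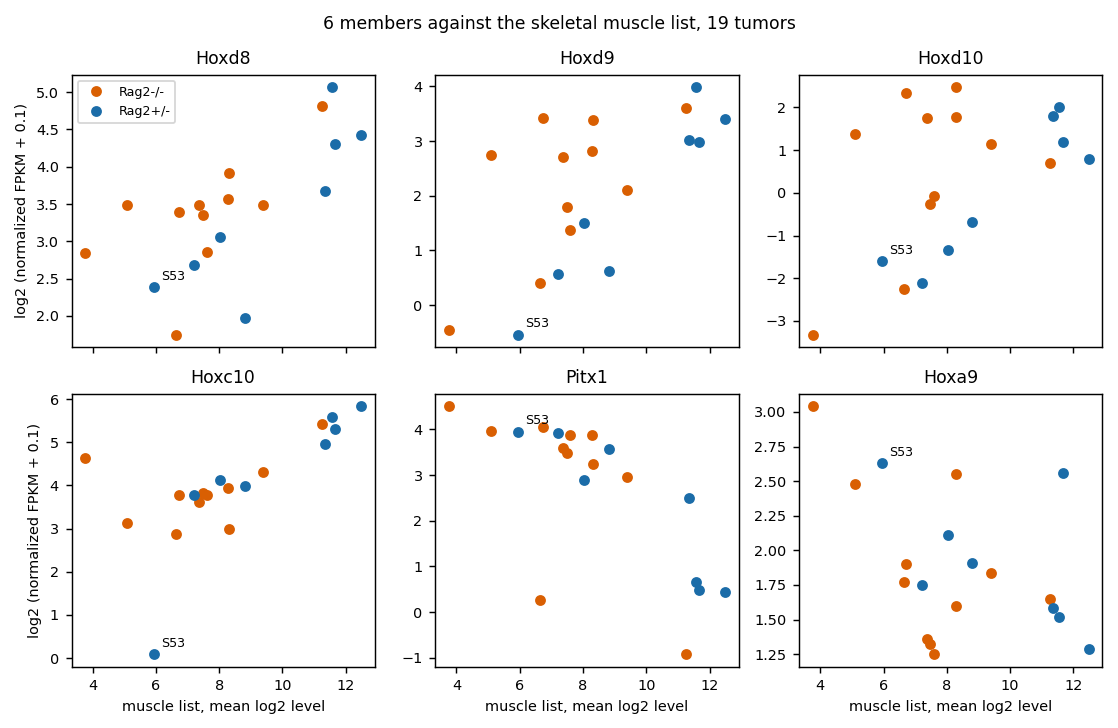
Each panel plots 1 gene, as the log2 of normalized FPKM plus 0.1, against the mean log2 level of 18 skeletal muscle genes; points are 11 Rag2-/- and 8 Rag2+/- tumors, and S53 is labelled. *Hoxd8* and *Hoxd9* are mostly higher and *Pitx1* is mostly lower in the tumors with the most muscle. *Hoxd10* is highest in S49 and S41, whose muscle means are 8.3 and 6.72, and *Hoxc10* in S53 lies far under the rest.

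S53, a Rag2+/- tumor, stood apart by low levels of nearly the whole Hoxc cluster. None of its 9 Hoxc genes was above 1 normalized FPKM, while every other tumor had 4 to 8. Hoxc genes held 4.16% of its summed HOX FPKM and 21.0% to 55.7% in the other 18 tumors, and Hoxa genes held 81.4%. Averaged over the Hoxc genes with a mean log2 value above 0, S53 was 3.66 below the median of the tumors, and the other tumors were between −1.07 and 0.79. *Hoxc11* was at the floor, *Hoxc10* at 0.09, *Hoxc9* at −2.05, *Hoxc8* at −3.32 and *Hoxc6* at −0.30. Low *Hoxc4* and *Hoxc5*, at −1.19 and −2.43, completed a run of 7 neighboring genes that were each lowest in S53, and these were named after their values were seen.

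The 4 flanking genes read on chromosome 15 all lie on the *Hoxc4* side of the cluster, and in S53 they were within the range of the other tumors. *Smug1*, *Cbx5*, *Hnrnpa1* and *Copz1*, which lie 103153290 to 103299868, deviated by −0.51, 0.36, 0.33 and −0.29 from their medians, and *Smug1* was lower in only 1 other tumor, S42, at −0.60. The 5 Hoxa genes that passed the filter were 0.79 above the median on average in S53, although *Hoxa4* among them was at −0.32 and *Hoxa13*, outside them, was at the floor, and *Hoxa7*, at 2.84, had its highest value of the 19 tumors there. The Hoxd cluster was low as well, by 2.25 on average, and so it was in S48 (by 2.64) and S46 (by 2.36), in which Hoxc was at 0.69 and −1.07. S53 had a muscle mean of 5.95, the lowest of the Rag2+/- tumors, a fibroblast list mean of 7.52 near the median of 7.74, and the lowest adipocyte and Schwann cell means of all tumors, −1.75 and −0.62. Their part in the low Hoxc level was not tested. Values per gene do not show whether DNA of the cluster was lost.

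**Figure D5:**
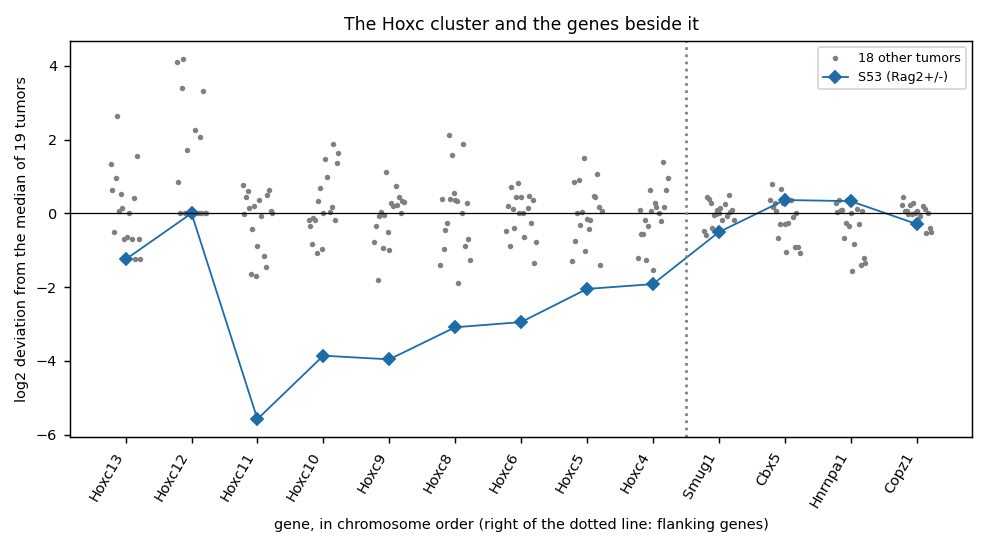
The log2 deviation from the median of 19 tumors is plotted for the 9 Hoxc genes in chromosome order and 4 flanking genes right of the dotted line; blue diamonds are S53 and grey points the other 18 tumors. S53 runs from −5.58 at *Hoxc11* back to between −0.51 and 0.36 at the flanking genes, and *Hoxc12* is at the floor in 11 tumors, so it cannot show a loss.

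Members of a cluster varied together to different degrees. Over 23 pairs of members of the same cluster with a mean log2 value above 0, the median Pearson r was 0.55, and over 68 pairs of different clusters it was −0.01 (19 tumors, given as a description, since the pairs share libraries and muscle content). Without S53 the medians were 0.28 and 0.04. For the Hoxc pairs the median fell from 0.70 to 0.28 when S53 was left out, while for the 3 Hoxd pairs it was 0.86 with and without it. For the 10 Hoxa pairs it was 0.13, and 0.09 without S53.

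Lists of cofactors and regulators of HOX genes were read next. Of 9 cofactors, the PBX, MEIS and PREP proteins that bind DNA together with HOX proteins, 8 were tested and 0 passed an adjusted p of 0.05 in the genotype fit. *Pbx2* had a mean log2 level of 3.76. With muscle, 1 of the 8 rose and 3 fell, beside 24.6% and 30.3% of all genes. *Pknox2* rose, by 0.56 (SE 0.05, limma adjusted p = 4.42e-08), and *Pbx3* and *Meis2* fell, by 0.23 and 0.33 per unit. These genes were chosen after their values were seen. Of 16 Polycomb genes, whose products keep silent HOX genes off, 16 were tested, with 0 called between genotypes and 4 rising and 7 falling with muscle, beside 24.6% and 30.3% of all genes. *Phc2* and *Bmi1* were highest, at 5.68 and 4.12. Of 7 Trithorax genes and H3K27 demethylases, which oppose Polycomb, 0 were called between genotypes, and 0 rose and 3 fell with muscle, beside the same shares. *Wdr5* and *Men1* were highest at 3.91 and 3.53.

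Of 25 limb patterning genes 14 were tested, with 0 called between genotypes and 5 falling with muscle, beside 30.3% of all genes. *Prrx1* and *Prrx2*, factors of limb mesenchyme, were highest at 5.56 and 3.92. *Prrx1*, *Gli3*, *Wnt5a*, *Shox2* and *Tbx3*, the 5 that fell with muscle, had slopes of −0.43 to −0.20. Of 14 genes flanking the HOX clusters 12 were tested, with 0 called between genotypes and 3 rising and 3 falling with muscle, beside 24.6% and 30.3% of all genes, and *Atp5g3* and *Hnrnpa1* were highest at 7.70 and 7.29. Of 8 Evx and ParaHox genes, homeobox genes related to the HOX clusters, 0 reached the level tested, and *Cdx4* and *Cdx1* were the highest at −3.26 and −3.27. Of 16 noncoding RNAs of the HOX clusters 2 were tested and 0 called in either limma fit, with 0 at an unadjusted p under 0.05, and 8 were at the floor in all 19 tumors. The 2 tested, *Hoxa11os* and *Hoxd3os1*, had mean log2 levels of 1.13 and 0.36.

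Markers of other cell types were read in the same 2 fits. Between genotypes 0 tested genes of these lists passed an adjusted p of 0.05 in limma, but only 2 of the 8 T cell genes, *Cd247* and *Lck* (mean log2 levels of 1.69 and 1.54), were high enough to be tested. The T cell list as a whole separated the genotypes, with means of −2.35 to −1.43 (median −1.71) in Rag2-/- tumors and 0.10 to 2.37 (median 1.26) in Rag2+/- tumors. *Cd3e*, *Cd3g*, *Cd3d* and *Cd6*, which were below the filter and are named after their values were seen, did not overlap between the groups, and *Cd3e*, a chain of the T cell receptor complex, was at the floor in all 11 Rag2-/- tumors. Whether T cell content bears on any member was not tested. The means of the other cell type lists overlapped between the genotypes.

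At an unadjusted p under 0.05 between genotypes were 14 of 18 muscle genes, with a median difference of −2.22, 2 of the 2 T cell genes tested and 1 each of 8 macrophage and 8 endothelial genes, and 0 of 8 fibroblast, 5 adipocyte, 3 Schwann cell and 1 keratinocyte genes tested, beside 16.3% of all genes. With the muscle list, 3 of 5 adipocyte and 3 of 3 Schwann cell genes rose, beside 24.6% of all genes, 6 of 8 fibroblast genes fell, beside 30.3%, and 0 T cell, macrophage, endothelial and keratinocyte genes were called, with 2 macrophage genes at an unadjusted p under 0.05. The list means over the 19 tumors ran from 5.42 to 8.31 for macrophages, with *C1qa* and *C1qb* highest at 8.84 and 8.73, and from 3.13 to 4.95 for endothelium, with *Cdh5* and *Pecam1* at 4.91 and 4.87. Fibroblast means ran from 5.86 to 8.64, with the collagens *Col3a1* and *Col1a2* highest at 10.22 and 9.58. Adipocyte means ran from −1.75 to 9.29, with *Fabp4* and *Cfd* at 5.83 and 3.31, and Schwann cell means from −0.62 to 4.09, with *Pmp22* and *Mbp* at 5.68 and 2.95. Keratinocyte means stayed between −2.67 and −0.67, with *Krt10* and *Trp63* highest at 0.01 and −0.04.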

How the data were processed

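RNA from 19 primary tumors was sequenced, 1 library per tumor. The authors deposited upper-quartile normalized FPKM on a log2 scale after 0.1 was added. The study's methods name Array Studio and its Omicsoft aligner, with the mouse B38 genome and an Ensembl R86 gene model, while the submitters' processing notes name Trimmomatic 0.36, STAR 5.5.4b, HTSeq and mm10, and which of these made the values is not settled here. Depth was estimated from the steps between low values, since no counts were used here. FPKM is relative, so a tissue rich in a few very abundant transcripts can shift the values of other genes.

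Groups followed the genotype labels. Genes with a mean log2 value above 0 entered limma 3.58.1 (R 4.3.3) with its trend option, and p-values were adjusted over all genes tested (Benjamini-Hochberg). One fit held genotype, the other genotype and the mean of 18 skeletal muscle genes. The scripts were tested on simulated data. Neighboring genes were compared within tumors by a two-sided exact sign-flip permutation test in Python 3.11.15. P-values take tumors as replicates. The 15 tumors for which the study lists its own per-tumor values were one alternative. Others were pseudocounts, filters, scalings and leaving out 1 tumor at a time.

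Genes named were the limb factors, the highest and the most variable member of each cluster (mean log2 value above 0 for the latter), the 3 members with the lowest p between genotypes, those 3 most clearly rising and those 3 most clearly falling with muscle by p, both genes of the 2 largest steps of each cluster and the 2 highest genes of each other list; any others were named after their values were seen. One gene of a list is not reported here. The members and the 16 gene lists were chosen with earlier results of these data known. Antisense partners of *Hoxa4* and *Hoxa7* cover 16.0% and 20.4% of their exonic bases.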

Additional observations from a re-analysis of the deposited data

Results flagged for a closer look

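Single tumors stood far from the rest of their group for 4 of the 20 genes named. In a group of 8, chance marks about 1 in 20 groups in this way. Some of the 20 genes, *Hoxc11* among them, were named for a large SD in these same values. That rate is therefore no measure for these 4, which are also not independent. Only the 8 Rag2+/- tumors were examined in this way, since the Rag2-/- group is larger than 10. In S53 *Hoxc10* was at 0.09 on the log2 scale, with the nearest other tumor at 3.77, and *Hoxc11* was at −3.32, the floor, with the nearest at 0.82. *Tbx5* was at −1.16 in S55, with the nearest at −2.81, and *Hoxd11* was at −0.92 in S52, with the nearest at −2.68. The *Tbx5* and *Hoxd11* values stand out because most of the group lies at or near the floor, and both are under 1 normalized FPKM.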

How the results depend on the processing

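Over 564 recomputed values, 525 kept their direction and their side of the threshold, 27 lost the threshold, 1 reversed and 11 moved. A count was taken as kept within 1.5 times its value, and S41 was left out under 2 settings that give the same values. The 1 that reversed was the *Pitx1* genotype difference, −0.49 with the muscle list as a covariate (limma adjusted p = 0.998). Members called between genotypes stayed at 0 under every setting run. Over all genes that count, 4, was 15 in the 15 tumors with per-tumor values listed by the study, 34 with no filter, 0 with a mean above 2, 2 with the muscle covariate and 3 to 7 when 1 tumor was left out (7 without S51 or without S56). Members called with the muscle list were 7 of 16, beside 54.9% of all genes. With a mean above 2 they were 4 of the 6 that remained, beside 5646 of 9644 genes. In the Rag2-/- tumors alone they were 0 of 16, beside 12.6% of all genes, and over all genes 7039 fell to 1620 there. When 1 tumor was left out they were 5 to 8, beside 5780 to 7701 of all genes. The *Hoxc10* slope ran from 0.24 to 0.55 when 1 tumor was left out, lowest without S53. The smaller group of 8 Rag2+/- tumors alone gave 8 of 16. The filter at 2 leaves fewer genes to test. For the other changes the cause was not tested. The median number of expressed HOX genes was 28 above 0.1 and 5 above 5 normalized FPKM. The step from *Hoxa7* to *Hoxa9* was 0.01 and that from *Hoxa11* to *Hoxa13* −1.74 in the Rag2+/- tumors alone, both past no threshold there. No paired analysis was possible because the labels pair no tumors across the genotypes. S41, at 5.25 M fragments, limits what can be read of low genes.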
